A study of Mus musculus with 4 samples.

Results

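The genes described here are 8 mouse genes of the Dach, Eya and Six-gene families of transcriptional regulators: Dach1, Eya1, Eya2, Eya3, Eya4, Six2, Six4 and Six5. They were taken by name from the 51826 genes of the count table. All 8 passed the filter on low values, an average of 10 or more raw counts per library, which 16734 genes passed in all. The 8 were selected on their measured counts in these same libraries, so their values are given as a description and no test was made on them. Dach2, Six3 and Six6, which belong to the same families, are set beside them where they help to read the values.

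RNA was sequenced from dermal papilla cells (DPCs), the mesenchymal cells at the base of the hair bulb, and dermal sheath cells (DSCs), which line the outside of the follicle. Both were dissected and enzymatically freed from whisker follicles, then cultured in DMEM. The donors were EGFP-transgenic C57BL/6J mice aged 5 to 6 weeks, and the labels give the genotype of every sample as WT. Cells were harvested at passage 3 (low passage) or at passage 9 (high passage), and the question was what differs between the 2 passages. Each of the 4 groups is 1 library, so no difference below has a replicate check, and how many animals or cultures stand behind a library is not given in the sources used here.

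Six-family proteins are homeodomain transcription factors that bind DNA. Eya proteins do not bind DNA themselves: they join Six-family proteins as coactivators and also carry a phosphatase domain. Dach proteins, relatives of the Ski corepressor, can turn the same targets down, and Pax factors often act upstream, so the 4 families are described as a network that is reused in eye, ear, kidney, muscle and limb development.

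For Dach1 and Six5, 2 members that were higher at passage 9 in both cell types and whose start sites are the same or lie close together in RefSeq and GENCODE, the 200 bases before the RefSeq start are shown, to show the sequence just upstream of the transcripts that were higher. RefSeq promoters were matched by symbol for 6 of the 8 genes, and those of Eya1 and Eya2 were not matched. The sequences are from build GRCm38.p6 and run 5′ to 3′ on the strand of the gene, and capitals mark a match to one of 7 motifs searched on both strands. Dach1 (chr14:98169766-98169965, minus strand) has a GC content of 52.5% in this window and Six5 (chr7:19094344-19094543, plus strand) one of 62.0%.
Dach1: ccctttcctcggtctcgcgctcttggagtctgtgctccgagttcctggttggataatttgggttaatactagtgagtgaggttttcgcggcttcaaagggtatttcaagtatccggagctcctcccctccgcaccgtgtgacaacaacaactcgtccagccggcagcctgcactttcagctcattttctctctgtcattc
Six5: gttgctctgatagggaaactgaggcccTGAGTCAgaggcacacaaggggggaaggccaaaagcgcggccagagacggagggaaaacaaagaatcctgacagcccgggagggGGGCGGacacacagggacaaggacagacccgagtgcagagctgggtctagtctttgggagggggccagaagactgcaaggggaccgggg

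The motifs were the CCAAT box (CCAAT), the TATA box (TATAAA), the GC box (GGGCGG), a Tcf/Lef site (CTTTGAT), the E-box (CANNTG), the MEF3 site bound by Six-family proteins (TCAGGTTTC) and the AP-1 site (TGANTCA). The Dach1 window holds none of these letters. The Six5 window holds a GC box that begins 89 bases before the start and an AP-1 match that begins 173 bases before it. Of 27025 RefSeq promoter windows of the same length, 31.3% hold the GC box and 5.55% the AP-1 letters. The CCAAT box is in 30.0% of them, the TATA box in 10.6%, the Tcf/Lef letters in 2.48%, the E-box in 57.9% and the MEF3 letters in 0.322%. A match is a run of letters and was not measured as a bound site.

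Levels are given as raw counts and as CPM (counts divided by the size of the library in units of 1e6 reads, after TMM scaling). Gene positions are those of build GRCm38. Each fold change is the difference between 2 libraries in log2 CPM, computed after adding a prior count of 2, and a gene was called at an absolute log2 fold change of 2 (4-fold). The 95% intervals are exact Clopper-Pearson intervals for the share of the reads that fell in 1 of 2 libraries. They are computed without the prior count, cover counting error only and compare 2 libraries, not 2 conditions. Since each library is a pool of cells, fewer expressing cells and less RNA per cell cannot be told apart.

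Between passage 3 and passage 9, 1 of the 8 genes passed 4-fold in DPCs, namely Eya2, which was lower (background: 4.36% of all tested genes were 4-fold lower and 9.94% were 4-fold changed either way). In DSCs 1 of the 8 passed, namely Dach1, which was higher (background: 2.67% of genes 4-fold higher, 3.82% either way). None of the 8 passed in both cell types, where 1.78% of all tested genes did so in the same direction. That count turned on the prior count: with a prior of 0.5 Dach1 passed in DPCs too, and so in both cell types, and without a prior its ratio of scaled counts was 4.32-fold in DPCs and 12.3-fold in DSCs. At a 2-fold threshold the genes past it were Dach1, Eya1, Eya2 and Six2 in DPCs (background 31.1%) and Dach1 alone in DSCs (background 14.8%), so that Dach1 alone passed it in both (background 8.4%). The sign of the passage difference was shared by both cell types for 6 of the 8 genes, with 4 higher and 2 lower at passage 9 (36.1% and 34.4% of all tested genes), and it was opposite for Eya1 and Eya4 (29.5% of all tested genes had opposite signs). In DSCs the counting interval holds 0 for Eya1 and Six2, so the sign of these 2 is not settled there. These counts are a description of genes picked with such values in view.

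**Figure D1:**
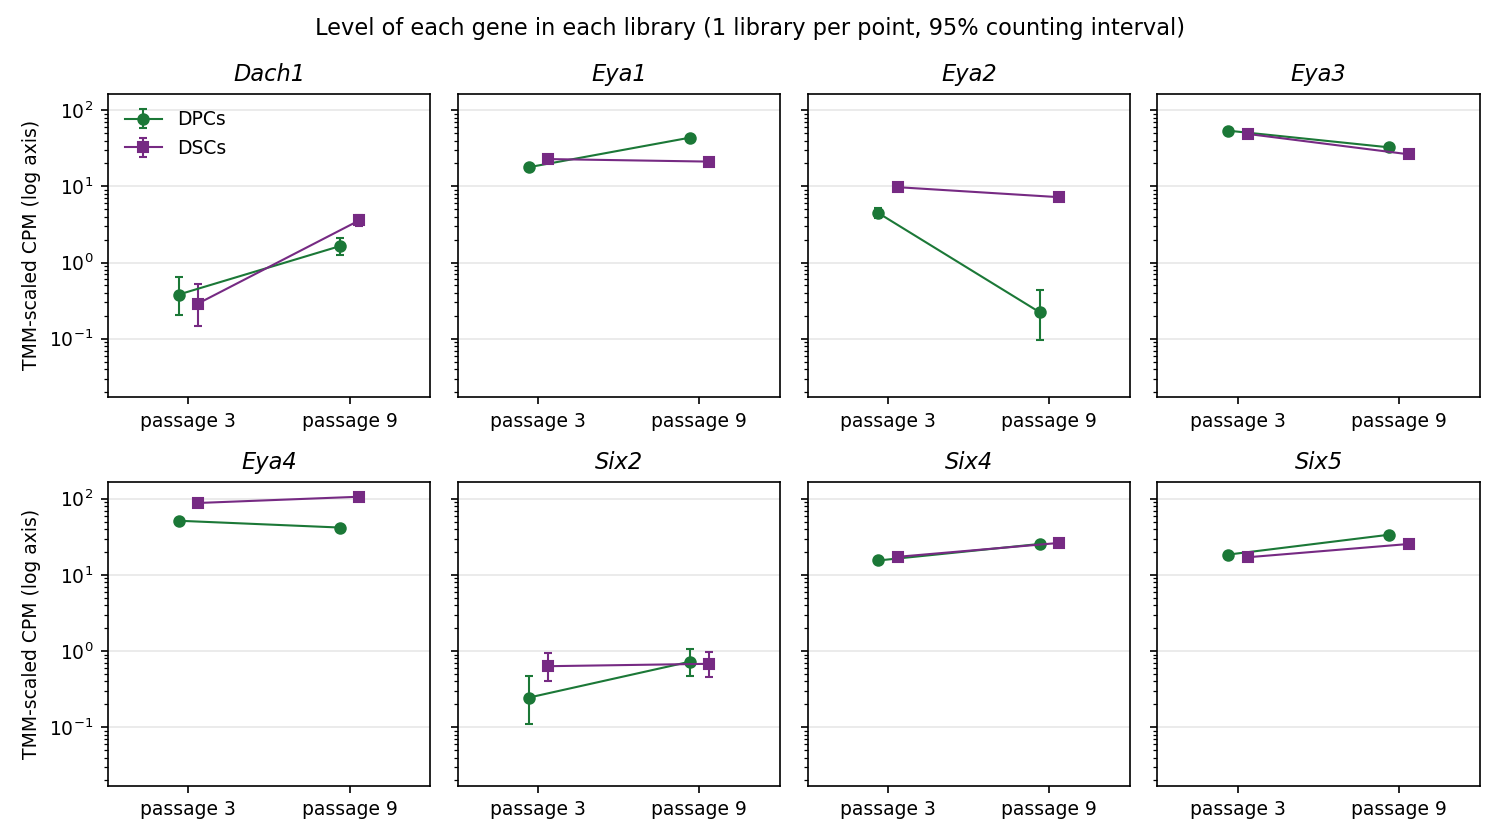
TMM-scaled CPM (log axis) of the 8 genes at passage 3 and passage 9 in DPCs (green circles) and DSCs (purple squares), 1 library per point, with 95% counting intervals. Dach1 climbs in both cell types, to 1.64 CPM in DPCs and 3.58 in DSCs, and Eya2 drops to 0.223 CPM in high-passage DPCs alone. Six4 is nearly the same in the 2 cell types, while Six5 parts at passage 9, at 33.7 CPM in DPCs and 25.5 in DSCs.

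Dach1 (ENSMUSG00000055639, chr14:97786853-98169765, minus strand) encodes the corepressor of the network and was low at passage 3, at 0.380 CPM in DPCs and 0.290 CPM in DSCs. At passage 3 and passage 9 it had 14 and 59 counts in DPCs and 11 and 163 in DSCs. Both high-passage libraries were above both low-passage libraries, and the 2 low-passage libraries were within counting error of each other. The passage difference on the log2 scale was 1.97 in DPCs (95% interval 1.25 to 3.07) and 3.41 in DSCs (2.75 to 4.65). The value in DPCs was just under the 4-fold threshold, and 94.2% of tested genes had a smaller one. The 2 cell types differed little at passage 3, at 0.34 for DPCs over DSCs (-0.85 to 1.67), and at passage 9 DPCs were lower, at -1.10 (-1.58 to -0.68).

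Dach2, the paralogue of Dach1 on the X chromosome, did not follow it. Its counts were 83 at passage 3 and 10 at passage 9 in DPCs, and 117 and 127 in DSCs. Only the high-passage DPC library was low, at -2.81 on the log2 scale against passage 3 (-4.13 to -2.07), while DSCs gave -0.14 (-0.52 to 0.23). Per transcript length, in the FPKM values deposited by the authors, Dach1 made up 9.70% of the summed Dach1 and Dach2 level in low-passage DPCs and 75.7% in high-passage DPCs. In DSCs that share was 6.20% at passage 3 and 50.5% at passage 9. With counts divided by summed exon length the shares were higher, at 18.5% and 88.8% in DPCs and 11.3% and 63.4% in DSCs. On both scales Dach2 led at passage 3. The summed FPKM of the pair stayed between 0.375 and 1.20, so the family was low throughout.

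Eya2 (ENSMUSG00000017897, chr2:165595032-165771727, plus strand) encodes an Eya coactivator known from muscle precursors, and it had the widest range of the 8 genes. DPCs held 164 counts of it at passage 3 and 8 at passage 9, and DSCs 370 and 329. The high-passage DPC library stood apart and the other 3 lay between 4.46 and 9.76 CPM. In DPCs the passage difference was -4.04 on the log2 scale (-5.56 to -3.31), and without the prior count the ratio of scaled counts was 20.0-fold lower at passage 9. In DSCs it was -0.43 (-0.65 to -0.22). DPCs were below DSCs at both passages, by a log2 difference of -1.12 (-1.40 to -0.86) at passage 3 and -4.73 (-6.24 to -4.02) at passage 9.

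Eya1 (ENSMUSG00000025932, chr1:14168954-14310235, minus strand) is the Eya gene best known from ear and kidney development. Counts in DPCs were 656 at passage 3 and 1564 at passage 9, against 866 and 964 in DSCs. The high-passage DPC library was again the one apart, this time on the high side, at 43.6 CPM against 17.8 to 22.8 CPM in the other 3. The passage difference was 1.29 in DPCs (1.16 to 1.42) and -0.11 in DSCs (-0.24 to 0.02). DPCs were lower than DSCs at passage 3, at -0.36 (-0.51 to -0.21), and higher at passage 9, at 1.04 (0.93 to 1.16).

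Eya4 (ENSMUSG00000010461, chr10:23102963-23350786, minus strand) is an Eya gene known from hearing and heart muscle, and by FPKM it was the most abundant Eya gene in 3 of the 4 libraries. At passage 3 and passage 9 it had 1890 and 1501 counts in DPCs and 3333 and 4837 in DSCs. Both DSC libraries were above both DPC libraries. DPCs were lower than DSCs by a log2 difference of -0.77 (-0.86 to -0.69) at passage 3 and -1.34 (-1.43 to -1.26) at passage 9. Its passage differences were small and of opposite sign, at -0.30 in DPCs (-0.39 to -0.20) and 0.27 in DSCs (0.21 to 0.34).

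Eya3 (ENSMUSG00000028886, chr4:132638987-132724765, plus strand) is the most broadly expressed of the Eya genes. Its counts were 1982 at passage 3 and 1166 at passage 9 in DPCs, and 1851 and 1201 in DSCs. Both high-passage libraries were below both low-passage libraries. The passage difference was -0.73 in DPCs and -0.89 in DSCs, where 7.64% of tested genes had a lower value. The cell types lay close together, with log2 differences of DPCs over DSCs of 0.14 at passage 3 and 0.30 at passage 9, and the first of these turned negative on the FPKM scale.

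On the length-scaled FPKM, the 4 genes of the Eya family summed to 31.1 at passage 3 and 29.7 at passage 9 in DPCs, and to 42.0 and 36.7 in DSCs. The share of each gene in this sum differed between libraries. In DPCs Eya1 went from 17.3% of the sum at passage 3 to 38.7% at passage 9, and Eya2 from 7.60% to 0.261%. In DSCs Eya4 went from 46.0% to 61.8% and Eya3 from 30.5% to 17.9%. The leading gene in both DPC libraries depended on the length used. At passage 3 Eya4 led by FPKM with 38.9%, and Eya3 led with 50.8% when counts were divided by the summed exon length of each gene. At passage 9 Eya1 led by FPKM, while by exon length Eya3 had 36.3% and Eya1 35.2%, and Eya2 had 0.475%.

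**Figure D2:**
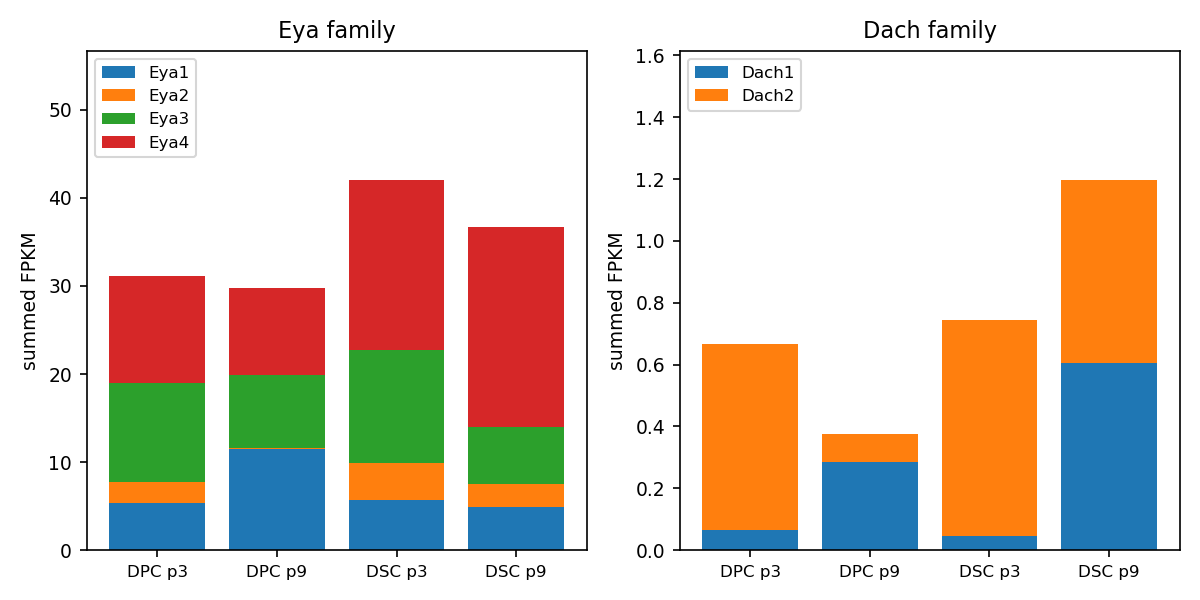
Stacked bars of deposited FPKM for the 4 Eya genes (left) and the 2 Dach genes (right), 1 library per bar, from passage 3 (p3) and passage 9 (p9). Eya1 takes 38.7% of the Eya bar in high-passage DPCs, and Dach1 takes 75.7% of the passage 9 Dach bar in DPCs and 50.5% in DSCs.

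All 3 Six-family members were higher at passage 9 than at passage 3 in both cell types, as were 36.1% of all tested genes. For Six2 in DSCs the log2 difference was only 0.10, with an interval that holds 0 (-0.71 to 0.94). Six4 (ENSMUSG00000034460, chr12:73099609-73113456, minus strand) encodes a Six-family factor with a part in muscle development. DPCs held 569 counts of it at passage 3 and 914 at passage 9, and DSCs 655 and 1197. The 2 passages did not overlap and the 2 cell types were nearly equal at each passage. The passage difference was 0.72 in DPCs (0.57 to 0.87) and 0.60 in DSCs (0.47 to 0.74), and the 2 values differed by 0.11 (-0.09 to 0.32), an interval that holds 0.

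Six5 (ENSMUSG00000040841, chr7:19094594-19098549, plus strand) encodes a homeodomain factor and lies 773 bp from Dmpk, the gene of myotonic dystrophy. Counts in DPCs were 680 at passage 3 and 1210 at passage 9, against 646 and 1160 in DSCs. As for Six4, both high-passage libraries were above both low-passage libraries. The passage difference was 0.87 in DPCs (0.73 to 1.01) and 0.58 in DSCs (0.44 to 0.72). DPCs over DSCs gave 0.12 (-0.04 to 0.27) at passage 3 and 0.40 (0.29 to 0.52) at passage 9. Its neighbour Dmpk had a passage difference of 0.11 in DPCs and 0.86 in DSCs, so the 2 neighbours lay further apart in DPCs.

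Six2 (ENSMUSG00000024134, chr17:85684277-85688274, minus strand) maintains nephron progenitors in the kidney and was near the detection limit here. At passage 3 and passage 9 it had 9 and 26 counts in DPCs and 24 and 31 in DSCs. The low-passage DPC library was the lowest and the other 3 lay between 0.633 and 0.725 CPM. The passage difference in DPCs was 1.39 (0.43 to 2.85), and the interval widened to between -0.07 and 3.51 when counts were halved, as counting both mates of a read pair would require. At this depth a passage difference of Six2 is therefore not firmly seen.

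Per transcript length the 3 Six-family members kept 1 order in every library. By FPKM, Six5 had 5.65 at passage 3 and 10.2 at passage 9 in DPCs, and 4.90 and 7.19 in DSCs. Six4 followed with 2.20 and 3.61 in DPCs and 2.31 and 3.45 in DSCs. Six2 was lowest, between 0.104 and 0.309. Six3 and Six6, known from eye and forebrain, had at most 4 counts in any library.

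**Figure D3:**
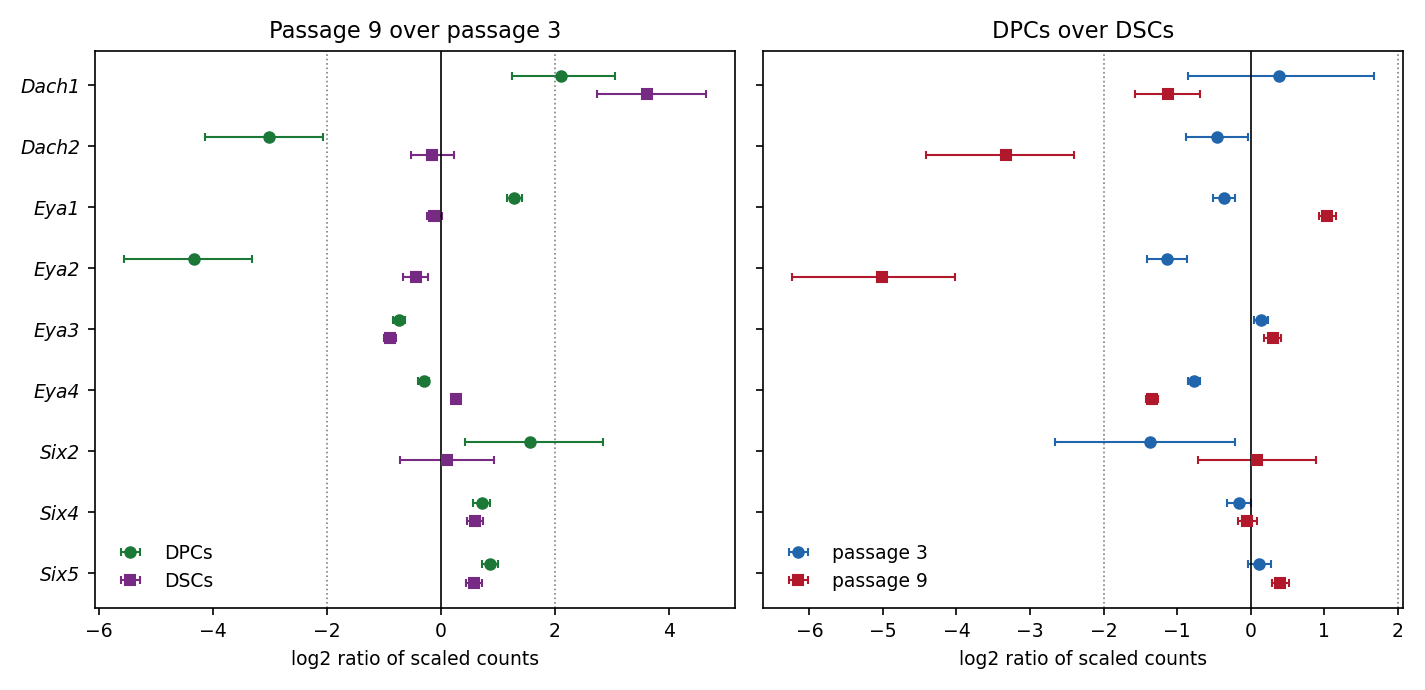
Log2 ratio of scaled counts, without a prior count, for the 8 genes and Dach2, as passage 9 over passage 3 (left) and as DPCs over DSCs (right), with 95% counting intervals and dotted lines at 4-fold. Eya2 and Dach2 are far to the left in DPCs and near 0 in DSCs, and Dach1 is to the right in both.

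Between cell types, none of the 8 genes passed 4-fold at passage 3 (background 4.3%) and 1 did so at passage 9, namely Eya2, which was lower in DPCs (background 6.42%, of which 3.91% lower). At 2-fold the genes were Eya2 and Six2 at passage 3 (background 13.3%) and Dach1, Eya1, Eya2 and Eya4 at passage 9 (background 20.1%). The median of the 8 log2 differences was 0.79 with passage in DPCs, 0.18 with passage in DSCs, -0.26 between cell types at passage 3 and 0.02 at passage 9. Over all tested genes these medians lay between -0.01 and 0.03. The counting interval left out 0 for 8 of the 8 genes with passage in DPCs and for 6 with passage in DSCs, against 77.6% and 66.7% of all tested genes. Between cell types it did so for 5 genes at passage 3 and 6 at passage 9, against 59.5% and 70.7%. With halved counts it did so for 7 genes with passage in DPCs and 6 in DSCs, and for 4 and 6 between cell types. The share of all tested genes was not computed for halved counts.

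**Figure D4:**
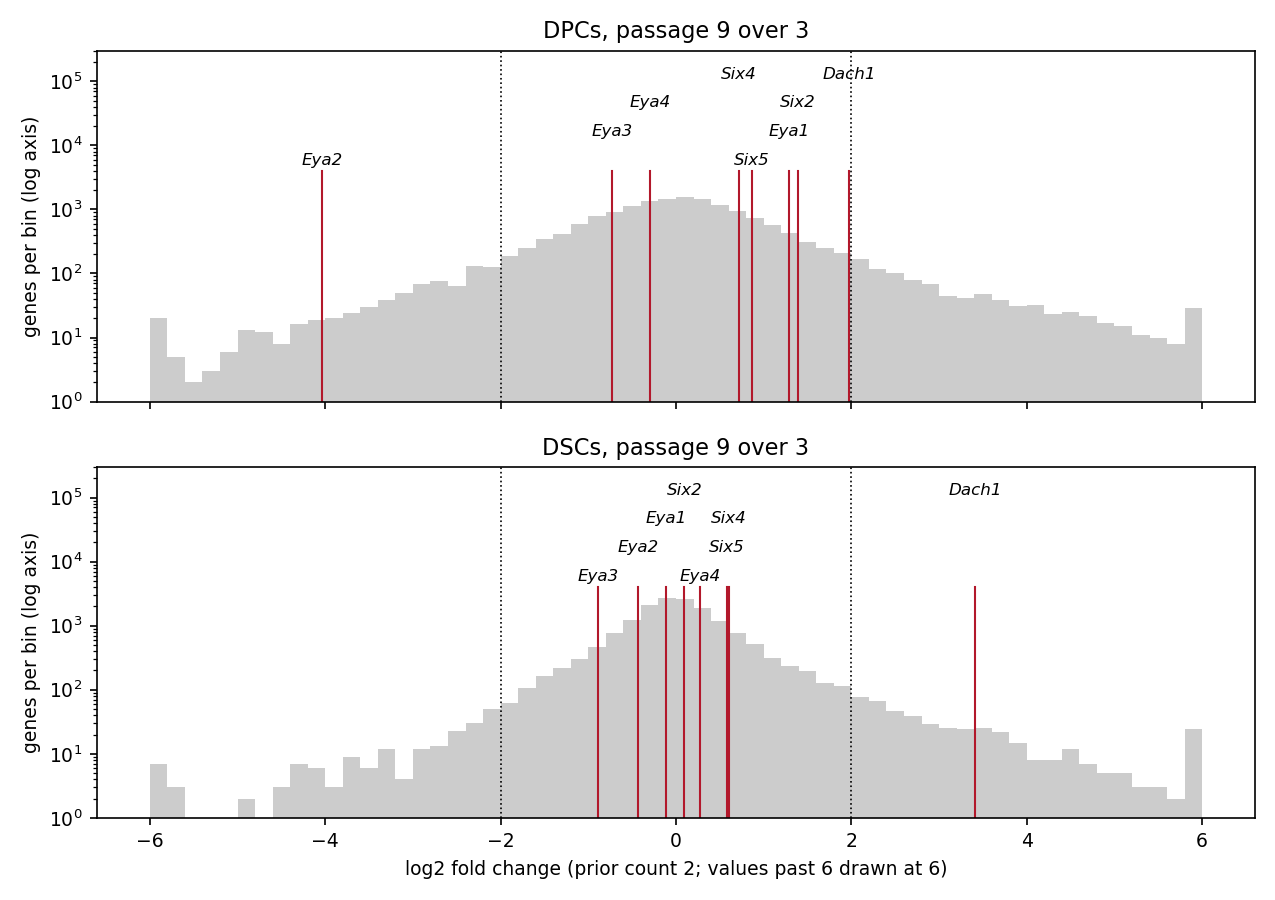
Histograms of the log2 fold change of passage 9 over passage 3 for the 16734 tested genes (genes per bin of 0.2, log axis) in DPCs (top) and DSCs (bottom), with red lines at the 8 genes and dotted lines at 4-fold. Eya2 at -4.04 lies in the lower tail in DPCs and Dach1 at 3.41 in the upper tail in DSCs, while Dach1 in DPCs touches the threshold at 1.97.

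The passage difference of each gene was also set side by side in the 2 cell types. Of the 8 genes Eya2 differed most, with a log2 value of DPCs minus DSCs of -3.61, and 98.1% of tested genes had a smaller absolute difference. The same value was -1.44 for Dach1, higher with passage in both, and 1.40 for Eya1. The differences were small for Eya3 (0.16), Six4 (0.11) and Six5 (0.29). With 1 library per group these differences between cell types were not tested.

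The genes whose profile over the 4 libraries was most like that of a member were found among 11392 protein-coding genes by the Euclidean distance of centred log2 CPM, and are named for Eya2 and Eya4, the 2 most variable members with a mean count of at least 100. For Eya2 they were Hr, the hairless corepressor of the hair cycle (distance 0.04), Bmp4, a BMP ligand made by the papilla (0.34), and Adm2, a peptide of the adrenomedullin group (0.56). Hr went from 297 counts to 16 in DPCs and from 692 to 596 in DSCs. Bmp4 had 2104, 137, 5931 and 5724 counts in the same order. Each of the 3 was lowest in the high-passage DPC library, as Eya2 was, which follows from picking them by likeness to it. For Eya4 the nearest genes were Nacad (0.15), Plcd1, a phospholipase C (0.20), and Galk2, a galactosamine kinase (0.20). With 4 points per profile such likeness is a description.

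Of 28 other genes of the network (Pax factors, Ski and Skil, Groucho corepressors, Ncor, Sin3a and Hdac proteins and known Eya partners), 22 were tested and 0 passed 4-fold with passage in either cell type (background 9.94% in DPCs and 3.82% in DSCs). Their median passage difference was 0.10 in DPCs and -0.17 in DSCs. In DPCs the largest of the 22 were those of Ski, the corepressor related to Dach, at -1.88, and of Pax1, at 1.77, which in DSCs gave -0.45 and -0.56. In DSCs the largest were those of Tle2, a Groucho corepressor, at 0.87, and of H2ax, a histone that Eya proteins act on, at -0.76. Pax3, a Pax factor upstream of Six- and Eya-family genes in muscle, was well expressed, with 1815, 2482, 3195 and 3043 counts in low- and high-passage DPCs and low- and high-passage DSCs. Pax4, Pax7 and Pax8 had no count in any library.

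Of 16 genes known as targets of Six-, Eya- or Dach-family proteins, 11 were tested, and with passage in DPCs 2 were 4-fold higher (Sall1 and Esr1) and 1 was 4-fold lower (Wnt4), while 0 passed in DSCs (background either way 9.94% in DPCs and 3.82% in DSCs). Sall1, a kidney regulator, had 0 counts in low-passage DPCs and 45 in high-passage DPCs, with 4 and 15 in low- and high-passage DSCs. Esr1, the estrogen receptor bound by Dach1, had 18, 110, 131 and 294 counts in the same order. Wnt4, a Wnt ligand, had 94, 4, 187 and 98 counts, with a log2 difference of -4.00 in DPCs and -1.18 in DSCs. Ccnd1, which Dach1 is known to repress, gave -1.36 in DPCs and 0.02 in DSCs, and Myc gave -1.11 and -0.96. Ccna1, a cyclin, was at 0 in every library.

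**Figure D5:**
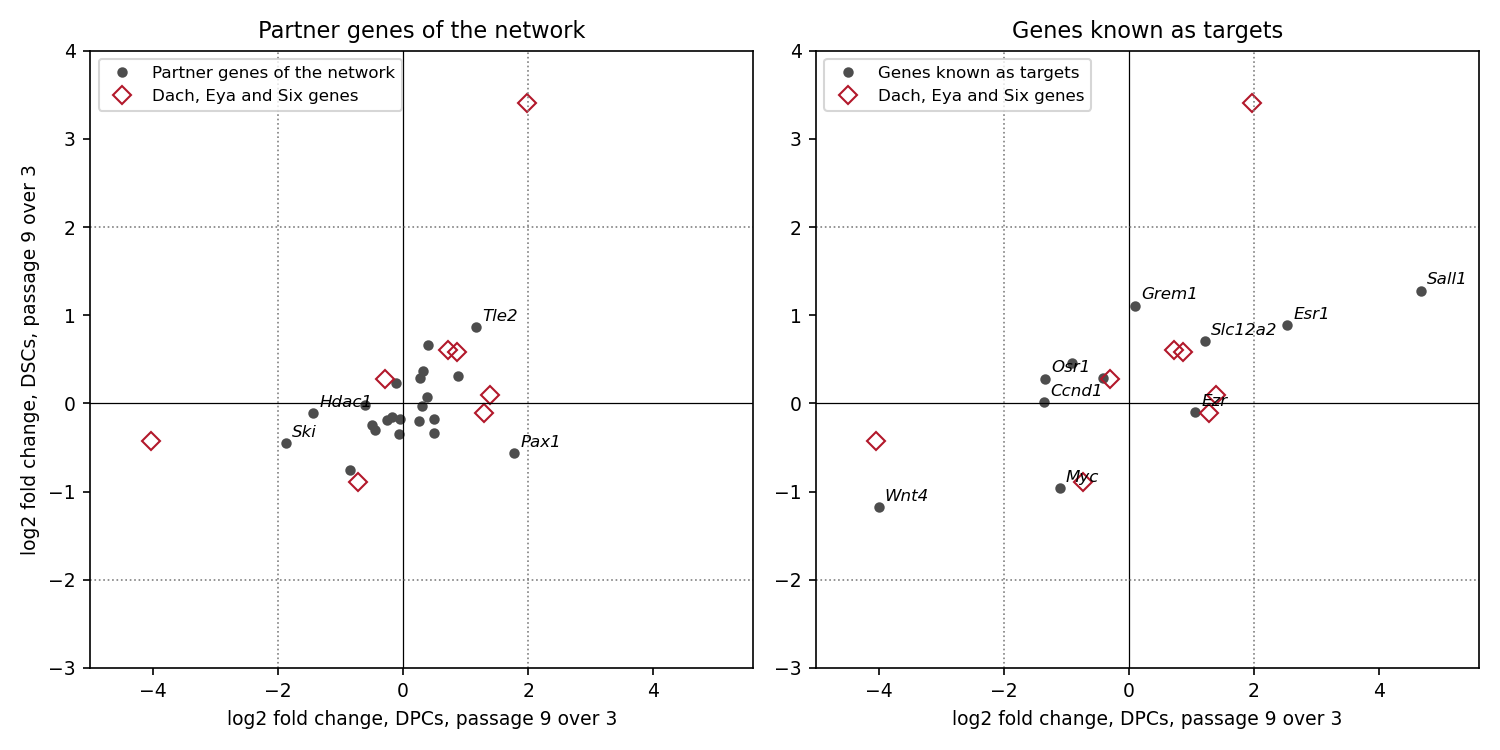
Log2 fold change with passage in DPCs (x axis) against DSCs (y axis) for the 22 tested partner genes (left) and the 11 tested target genes (right) as grey points, with the 8 genes as red diamonds in both panels and dotted lines at 4-fold. No partner gene lies outside the dotted lines, and Sall1, Esr1 and Wnt4 do so along the DPC axis only.

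Because Six- and Eya-family genes act in muscle, skeletal muscle markers were read in every library. Of 18 markers, 8 had no count anywhere, namely the muscle regulators Myod1, Myf5, Myf6 and Pax7, the muscle enzyme Ckm, and Myh4, Tnnc2 and Mymk, and Myog had 2 counts in 1 library. The summed level of the list ran from 70.9 to 143 CPM and came almost wholly from Pax3 and Acta1. Of the 5 tested markers, 3 were past 2-fold lower with passage in DPCs, where Eya2 was also lower. Acta1 had 1495 counts at passage 3 and 13 at passage 9 in DPCs, and 1837 and 1083 in DSCs. Musk, a receptor of the neuromuscular junction, had 51, 4, 285 and 65 in the same order. Chrna1 had 46, 15, 49 and 154, so it was higher at passage 9 in DSCs. Pax3 and Tnnt3 were not lower with passage in DPCs, where Pax3 had 1815 and 2482 counts and Tnnt3 26 and 27. The part of any muscle-lineage cells in the values of Eya2 was not tested.

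The labelled cell types were checked against their markers in the same way, and the papilla markers did not separate the cell types as a list. Of 10 papilla markers, Sox2 was higher in DPCs, with 1677 and 1491 counts at passage 3 and 9 against 269 and 178 in DSCs. Ncam1, an adhesion molecule, went the other way, with 3642 and 1673 counts in DPCs against 11755 and 15584 in DSCs, a log2 difference of DPCs over DSCs of -1.65 at passage 3 and -2.87 at passage 9. Crabp1, a retinoic acid-binding protein, had 22409 and 14584 counts in DPCs and 1518 and 20405 in DSCs, so DPCs were above DSCs at passage 3 alone. The log2 difference of Vcan, the proteoglycan versican, was -0.31 at passage 3 and 0.59 at passage 9. For Lef1, a partner of beta-catenin, DPCs gave 508 and 2 counts at the 2 passages and DSCs 101 and 55. Corin, Prom1, Lepr, Alpl and Sox18 had at most 23 counts in any library.

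The 5 sheath markers, led by Acta2, were abundant in all libraries, at 4159 to 10597 CPM in sum, and 6 general mesenchymal markers summed to 6336 to 25905 CPM. Both sums were lowest in high-passage DPCs. The mesenchymal sum came mostly from the collagen genes Col1a1 and Col1a2, and Acta2 was the largest part of the sheath sum. In high-passage DPCs Acta2 gave 1871 of the 4159 CPM. With passage in DPCs, Col1a1 gave -2.57 on the log2 scale, against -0.37 in DSCs, and Col3a1 went from 45727 to 5565 counts, against 26269 and 41082 in DSCs. Of the 2 lists, only Itga8 and Pdgfra were highest in high-passage DPCs. Tagln, Myl9, Col11a1, Vim and Thy1 were lowest there, as were the markers named above. Itga8, an integrin subunit, had 186 and 967 CPM at passage 3 and 9 in DPCs and 44.1 and 511 CPM in DSCs, log2 differences of 2.38 and 3.53. Pdgfra, a PDGF receptor, had 304 and 811 CPM in DPCs and 121 and 266 CPM in DSCs.

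Of the markers of other skin cells, most of those of epithelium and pigment cells were at or near 0. Those of nerve, immune and vessel cells were mostly low but present. Of 10 keratinocyte markers 6 were at 0 throughout (Krt1, Krt5, Krt14, Krt15, Dsg3 and Cdh1), and the list summed to at most 2.07 CPM. Of 6 melanocyte markers 4 were at 0 (Tyr, Tyrp1, Dct and Mlana), and the list summed to 1.00 to 3.93 CPM. All 7 Schwann cell markers had counts, with sums of 6.35 to 21.4 CPM. Sox10, a factor of neural crest, glia and pigment cells, had 28 and 116 counts in low-passage DPCs and DSCs and none at passage 9, and Foxd3 had 24 and 32 and none at passage 9. Erbb3 and S100b were also past 4-fold in DPCs, where Erbb3 had 18 and 0 counts at passage 3 and 9 and S100b 164 and 35. In DSCs the counts were 44 and 9 for Erbb3, again past 4-fold, and 216 and 144 for S100b. For immune cells 7 of 8 markers had counts and summed to 64.7 to 165 CPM, mostly from Lyz2, with Cd3e at 0. Past 4-fold were Adgre1 and Itgam, at -2.02 and -2.05 in DPCs, and Ptprc, at -2.80 in DSCs. For endothelial cells 7 of 7 had counts, at 1.29 to 8.10 CPM in sum. Tek and Cdh5 had 59 and 16 counts in DPCs at passage 3 and none at passage 9. In DSCs Tek went from 114 counts to 31 and Cdh5 from 45 to 0. Vwf had 5 counts at passage 3 and 194 at passage 9 in DPCs and 91 and 10 in DSCs. The Schwann and immune sums, like those of sheath and mesenchyme, were lowest in high-passage DPCs, the library in which Eya2 and Dach2 were low, and the part of these cells in those values was not tested.

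None of the 8 genes shares an exonic base with another annotated gene, while 4 of them have a small RNA, pseudogene or other noncoding transcript within their span. Gm11460, a pseudogene inside Eya2, had 5 to 10 counts. Of the nearest protein-coding neighbours, Ptafr, beside Eya3, was past 4-fold with passage in DPCs, where it had 8 counts at passage 3 and 0 at passage 9, against 22 and 20 in DSCs. Over the series the libraries held 34981284 to 47604059 counts, and a count of 0 allows up to 0.0658 to 0.0836 CPM.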

How the data were processed

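RNA-seq of cultured mouse DPCs and DSCs was measured at passage 3 and passage 9, with 1 library in each of 4 groups assigned from the sample titles. The authors deposited raw counts per gene, whole numbers that were not normalized, and FPKM values per gene, scaled by the authors to transcript length and library depth. The submitters' processing notes name Bowtie 0.12.2 and the builds mm8 and mm9, while 51633 of 51826 gene IDs were found in GENCODE M21 (GRCm38), 94.1% with the same position and strand, so GRCm38 positions are given. The labels name a TruSeq kit and the study's methods an NEBNext kit with poly-T selection. The counting program and the use of strand are not given in the sources used here. Counts of 2 were more frequent than counts of 3 (1339 and 583 genes in low-passage DPCs), a pattern seen when both mates of a pair are counted, so intervals were also computed from halved counts.

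Counts were scaled by TMM in edgeR 4.0.16 (R 4.3.3), with a prior count of 2 for log2 CPM. The filter kept genes with a mean count of 10 or more, and 4-fold was the threshold, after the study. There were no replicates, so no test was run. Intervals are exact (scipy 1.17.1), and the script was tested on simulated data. Coverage at 1 simulated fold size missed the level first required for each size, and the requirement was then changed to coverage pooled over sizes. The interval of a difference between the passage differences of both cell types was a normal approximation from the 4 counts. FPKM columns were matched to count columns over 16261 genes: the correlation of log2 deviations was 0.973 or higher with its own library and 0.093 or lower with the others.

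The members and lists were chosen with earlier results of these data known. Named genes are the 8 members, other genes of the families (1 of which is not reported here), list genes past 4-fold, muscle regulators or genes at 0, neighbours that were called or belong to the families, and the 3 nearest profiles of 2 members. Dmpk, Ski, Pax1, Pax3, Tle2, H2ax, Ccnd1, Myc, Gm11460 and the papilla, sheath, mesenchymal, muscle and immune markers outside this rule were named after their values were seen. Alternatives were DESeq2 1.42.0 size factors, total counts, upper quartile scaling, prior counts of 0.5 and 10, no filter, a minimum of 100, FPKM with pseudocounts of 0.1 and 1, and a 2-fold threshold.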

Additional observations from a re-analysis of the deposited data

Results flagged for a closer look

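Eya1 and Eya4 had passage differences of opposite sign in DPCs and DSCs, though the counting interval of Eya1 in DSCs holds 0 (-0.24 to 0.02). For Eya1 the log2 passage difference in DPCs was 1.40 above that in DSCs, and for Eya4 the difference of DPCs minus DSCs was -0.57. The same values can be read as a cell type difference that depends on passage. DPCs over DSCs had opposite signs at passage 3 and passage 9 for Dach1 (passage 9 minus passage 3, -1.44), Eya1 (1.40) and Six2 (1.29). For Dach1 and Six2 the counting interval of 1 of the 2 cell type differences holds 0. With 1 library per group none of these differences was tested.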

How the results depend on the processing

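The 5 counts of members past 4-fold (1 in DPCs, 1 in DSCs, 0 in both, 0 between cell types at passage 3 and 1 at passage 9) moved under 4 settings. With a prior count of 0.5 Dach1 joined in DPCs, which gave 2 in DPCs and 1 in both cell types. With a minimum mean count of 100 Dach1 was filtered out, which gave 0 in DSCs. On FPKM with a pseudocount of 1, which shrinks the changes of low genes, the counts were 0 in DPCs, 0 in DSCs and 0 at passage 9. At a 2-fold threshold they were 4 in DPCs, 1 in both cell types, 2 at passage 3 and 4 at passage 9.

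Of 312 single values under these and the other settings, 281 stayed within their counting interval, and 5 had another sign: Eya3 between cell types at passage 3 on both FPKM scales, and Six4 at passage 9 with total counts and on both FPKM scales. Dach1 in DSCs ranged from 0.62 to 3.57 on the log2 scale, with the lowest value from FPKM with a pseudocount of 1. No paired analysis was possible because each group is 1 library, so that no more than 1 replicate number is shared between groups. With 1 library per group no library could be left out. Depth limits Dach1 and Six2 at passage 3 and Eya2 in high-passage DPCs, which rest on 8 to 24 counts.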
